A study of Homo sapiens with 16 samples.

Results

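The question addressed here was how the RNA response of CAL51 cells to the higher dose of CC-671 changed between 6 h and 24 h of exposure. For each gene the quantity of interest was the shift, the effect of 10 µM CC-671 at 24 h minus its effect at 6 h, where an effect is the log2 fold change of treated over DMSO libraries of the same time. A shift above 0 means that the treated-to-vehicle ratio was higher at 24 h than at 6 h. The libraries were chosen by their treatment labels, which gave 10 of the 16 libraries of the series: 3 of 10 µM CC-671 at 24 h, 2 of DMSO at 24 h, 3 of 10 µM CC-671 at 6 h and 2 of DMSO at 6 h. The other 6 libraries, 3 of 3 µM CC-671 at each time, entered the statistical fit and a comparison of the shift between doses.

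CAL51 is an established line of triple-negative breast cancer cells, used here at passage 10 in DMEM with 10% fetal bovine serum. Its karyotype is labelled near-diploid, with 28% tetraploid cells. All groups share the line and the medium, so nothing here speaks for other cells. Poly-A RNA was sequenced as read pairs of 100 bases from strand-specific libraries, and the deposited values are counts of read pairs per gene symbol. The libraries are labelled as biological replicates, with no statement on separate cultures, and p-values therefore measure the spread between these libraries.

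CC-671 inhibits TTK and CLK2. TTK, also called MPS1, is the kinase that recruits the spindle assembly checkpoint to kinetochores without bound microtubules and so holds cells in metaphase until chromosomes are attached. CLK2 and its paralogs phosphorylate SR proteins, which bind exons, help to choose splice sites and limit their own levels through unproductive splicing. Loss of spliceosome kinase activity is known to retain introns, and damage to dividing cells is known to act through p53.

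Counts at genes summed to 104609173 to 123789361 read pairs a library, and 22007 of 55510 symbols were abundant enough to be tested. Replicates correlated at r of 0.996 to 0.997 over genes, although every pair differed beyond sampling noise. The chi-square per gene was 2.82 to 3.29 at 10 µM and 24 h, 7.53 in DMSO at 24 h, 10.5 to 18.2 at 10 µM and 6 h and 7.89 in DMSO at 6 h. Replicate 1 of 10 µM at 6 h stood apart in several stress genes. Named genes whose call or sign changed without it were ATF3, CCR6, IL8, MYC and SH3GL2, and each change is stated below. TRIB3, HSPA5 and SLC7A11 are given only with it and kept their calls in all 24 alternatives. List counts are also given only with it. On a first principal component with 61.4% of the variance, the 10 µM libraries lay at 7.25 to 9.15 at 24 h and at 73.4 to 76.5 at 6 h, and all 4 DMSO libraries between -66.7 and -58.3. ESR1 and PGR, the hormone receptor genes that triple-negative cancers lack, reached at most 6 and 4 counts in any library. The basal keratin KRT5 had 0 counts, and the basal markers KRT14, KRT17, KRT6A and TP63 at most 1, 4, 1 and 21. The basal marker EGFR reached 11200 counts. The luminal markers ERBB2, KRT8, KRT18 and KRT19 reached 22618, 81320, 74746 and 39937 counts, and GATA3 and FOXA1 711 and 2008. Whether these levels match the triple-negative label was not tested.

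The largest upward shifts belonged to genes that were far below vehicle at 6 h and less so or no longer at 24 h, such as DSCC1 and PRKCI, and to stress genes higher at 24 h, such as NUPR1. The largest downward shifts belonged mostly to genes close to silence in vehicle that were very high at 6 h and less so at 24 h, such as SELPLG. Both rankings took only genes above a floor of average level. Genes close to silence in vehicle could pass that floor only through high treated libraries. The pattern of the downward ranking thus follows in part from the floor. Over all tested genes, 6068 shifted upward and 5815 downward at an adjusted p under 0.05, which is 27.6% and 26.4% of the genes. Of these, 1229 shifted at least 2-fold upward (5.58%) and 1148 at least 2-fold downward (5.22%). The median shift was 0.000615 on the log2 scale and the median absolute shift 0.40, against a median standard error of 0.11. With library totals alone in place of TMM scaling, 7280 genes were called upward and 4603 downward, so the even split of directions depends on the scaling: 61.3% of calls were then upward, against 51.1%.

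**Figure D1:**
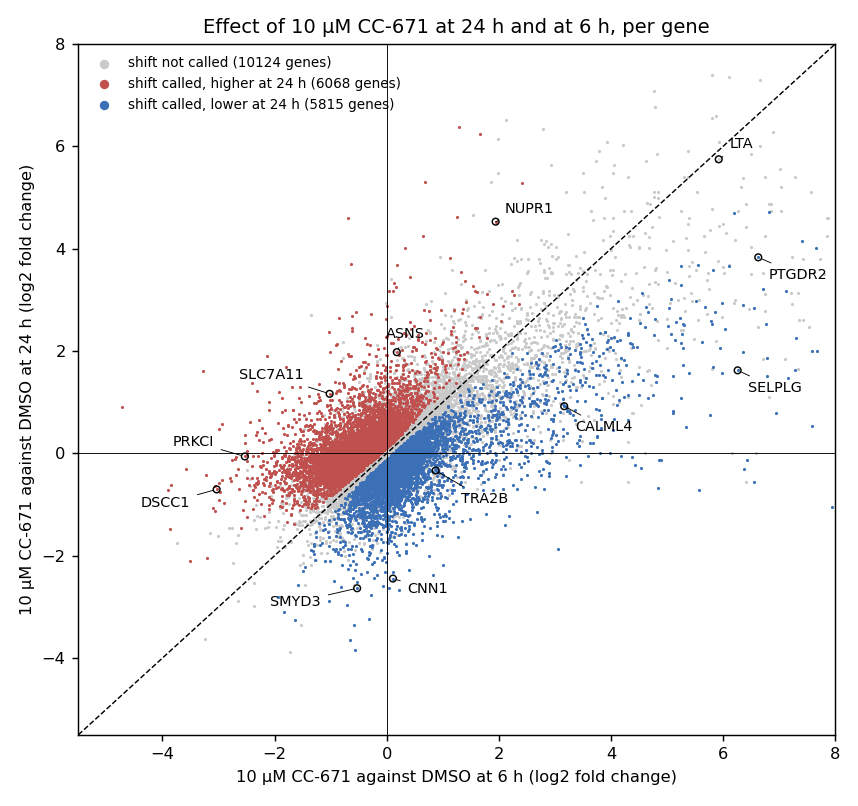
The effect of 10 µM CC-671 at 24 h (vertical axis, log2 fold change over DMSO) is plotted against its effect at 6 h (horizontal axis) for the tested genes, 17 of which lie outside the axes. Red points are the 6068 genes with a called upward shift and blue points the 5815 with a called downward shift, and the dashed line marks equal effects; SELPLG lies far below it and NUPR1 far above it.

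The vehicle cultures moved much less than the treated ones. In DMSO, 2421 genes were higher and 2101 lower at 24 h than at 6 h (11% and 9.55% of the tested genes), but only 54 and 50 of them by at least 2-fold. In the 10 µM libraries 70.4% of genes were called: 7794 genes were higher (35.4%) and 7694 lower (35%) at 24 h than at 6 h. Of these, 1580 (7.18%) and 1529 (6.95%) differed by at least 2-fold. Among the 11883 genes with a called shift, the median absolute change between the times was 0.51 in treated and 0.11 in DMSO libraries. The DMSO libraries moved more than the treated ones in 1315 of these genes (11.1%), and for those genes the shift is mainly a change of the vehicle. Against DMSO of the same time, 6891 genes were higher and 7114 lower at 24 h (31.3% and 32.3%), and 7484 higher and 7386 lower at 6 h (34% and 33.6%).

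Early rises kept more of their size than early falls did. Of the 2362 genes at least 2-fold up at 6 h (10.7% of the tested genes), with a median effect of 2.00 at that time, the median at 24 h was 1.29, and 54.7% were still at least 2-fold up and called, as 9.33% of all tested genes were. Of the 1489 genes at least 2-fold down at 6 h (6.77%), with a median effect of -1.30, the median at 24 h was -0.39, and 13.1% were still at least 2-fold down and called, as 3.67% of all tested genes were. At 24 h, 66.8% of the early rises and 62.8% of the early falls were called in their early direction, and 0.847% and 6.92% were called in the opposite one. These genes were chosen on the 6 h libraries, so some return toward 0 follows from the choice, and the 24 h values come from other libraries. Among the 7137 genes not called at 6 h, 3838 were not called at 24 h either. Effects at the 2 times, which share no library, correlated at r = 0.666 and rho = 0.529 across 22007 genes, which are not independent of each other.

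The calls at 24 h, at 6 h and of the shift together give each gene a time course. An effect called at 6 h and not at 24 h, with a called shift back, is termed returned: 1333 early rises and 1513 early falls had this course. An effect called in the same direction at both times but smaller at 24 h is termed partly returned, which 1119 rises and 1805 falls were. Opposite effects at the 2 times, both called, were found for 1195 genes up at 6 h and down at 24 h, and for 1114 genes down at 6 h and up at 24 h. An effect that grew from one called at 6 h is termed deepened (566 rises and 888 falls), and one first called at 24 h is termed late (997 rises and 1200 falls). A further 4019 genes were called in the same direction at both times with no called shift, but a shift that is not called does not show equal effects: in 2297 of them the 95% interval of the shift lay within 0.5 of 0 on the log2 scale. The remaining 6258 genes fell into none of these courses. As shares of all tested genes, 12.9% returned, 13.3% partly returned, 10.5% turned over to the opposite effect, 6.61% deepened, 9.98% were late and 18.3% held with no called shift.

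Promoters are shown for the amino acid response, a list with a median shift of 0.60, because its activator ATF4 binds a short known element with C/EBP partners. The letters searched were TGATGNAA on both strands, from 250 bases before to 50 after the annotated start of each gene, in the RefSeq promoter table of GRCh38.p14, a later build than that of the counts. Capitals mark the match, each line reads 5′ to 3′ on the gene's strand, and the element of ASNS begins 68 bases before the start, that of CHAC1 209 before it, that of SLC3A2 37 after it and that of ATF3 191 before it.
ASNS, chr7:97872359-97872658, minus strand: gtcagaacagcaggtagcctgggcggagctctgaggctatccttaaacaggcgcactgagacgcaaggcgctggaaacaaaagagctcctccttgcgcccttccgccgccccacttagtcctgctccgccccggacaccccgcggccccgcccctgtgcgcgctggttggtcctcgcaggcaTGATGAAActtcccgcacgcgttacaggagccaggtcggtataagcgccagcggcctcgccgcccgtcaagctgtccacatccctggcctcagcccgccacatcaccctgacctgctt
CHAC1, chr15:40953221-40953520, plus strand: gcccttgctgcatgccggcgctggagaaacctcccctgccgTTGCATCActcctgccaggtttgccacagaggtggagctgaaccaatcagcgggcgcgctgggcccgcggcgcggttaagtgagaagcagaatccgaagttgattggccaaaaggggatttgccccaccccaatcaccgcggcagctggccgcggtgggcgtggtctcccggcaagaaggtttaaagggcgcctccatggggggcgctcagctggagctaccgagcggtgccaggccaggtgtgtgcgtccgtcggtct
SLC3A2, chr11:62881449-62881748, plus strand: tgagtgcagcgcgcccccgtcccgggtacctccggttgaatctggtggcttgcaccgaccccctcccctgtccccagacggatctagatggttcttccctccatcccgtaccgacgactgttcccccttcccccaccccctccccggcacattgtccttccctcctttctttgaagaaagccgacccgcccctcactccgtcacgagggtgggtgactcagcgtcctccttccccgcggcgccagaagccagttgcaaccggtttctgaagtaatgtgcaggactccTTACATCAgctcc
ATF3, chr1:212565157-212565456, plus strand: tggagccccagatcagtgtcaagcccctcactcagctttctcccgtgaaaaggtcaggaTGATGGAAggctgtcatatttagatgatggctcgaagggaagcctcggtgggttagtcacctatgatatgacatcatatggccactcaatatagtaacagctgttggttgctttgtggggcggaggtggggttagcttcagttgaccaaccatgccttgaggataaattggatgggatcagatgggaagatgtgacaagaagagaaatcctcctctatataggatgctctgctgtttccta
Of the 24 ATF4 list genes with a promoter in the table, 5 held these letters (20.8%), of which the 4 with the largest shifts are shown and SLC7A1, with a shift of 0.16, is not. The letters were in 1003 of all 27305 promoters (3.67%) and 214 of the 11386 promoters of tested genes (1.88%). The list was made of ATF4 targets, so its share follows in part from the choice. A match is a description of the letters and not a shown binding site.

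ATF4 is the transcription factor whose translation rises under amino acid shortage and other stresses of translation, and its targets make, import and load amino acids. Of the 30 ATF4 list genes, 22 shifted upward, 2 downward and 6 were not called, with a median shift of 0.60 against 0.000615 over all genes; 27.6% of all genes were called upward. The median effect was 1.07 at 24 h and 0.49 at 6 h. By time course, 15 of the 30 deepened, against 6.61% of all genes, 6 held, against 18.3%, 5 turned over, 2 partly returned, 1 was late and 1 returned.

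NUPR1, a stress-induced chromatin protein, had the largest upward shift of the genes named by rule. It had 10.7, 11.5 and 12.4 CPM in 10 µM libraries at 24 h, against 0.569 and 0.423 CPM in DMSO at 24 h. In 10 µM libraries at 6 h NUPR1 had 1.66, 1.73 and 1.5 CPM, against 0.434 and 0.413 CPM in DMSO at 6 h. It was thus above vehicle in every treated library at both times, 23.1-fold at 24 h and 3.84-fold at 6 h in the fit, and the shift was 2.58 ± 0.22 on the log2 scale (SE; adjusted p = 1e-10). ASNS, asparagine synthetase, had 351, 351 and 362 CPM at 10 µM and 24 h, against 91 and 89.1 CPM in DMSO at 24 h. Its 6 h levels were 102, 94.1 and 92.8 CPM at 10 µM, against 84.8 and 85.5 CPM in DMSO. ASNS therefore stood near vehicle at 6 h, at 1.13-fold, and at 3.94-fold at 24 h (shift 1.80 ± 0.06; adjusted p = 3.6e-19).

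SLC7A11, the light chain of the cystine importer, changed sides. It had 202, 210 and 213 CPM at 10 µM and 24 h, against 93.8 and 92.1 CPM in DMSO at 24 h. At 6 h its levels were 62.2, 43.2 and 43.8 CPM at 10 µM, against 91.6 and 110 CPM in DMSO. All treated libraries lay above vehicle at 24 h and below it at 6 h, and the shift was 2.18 ± 0.20 (adjusted p = 2.9e-06). TRIB3, a pseudokinase that restrains ATF4 signalling, had 106, 113 and 112 CPM at 10 µM and 24 h, against 14.5 and 13.9 CPM in DMSO at 24 h. The 6 h libraries gave 59, 37.3 and 27.4 CPM of TRIB3 at 10 µM, against 15.7 and 15.4 CPM in DMSO. Treated libraries lay above vehicle at both times, those of 6 h spread widely with replicate 1 the highest, and the shift of TRIB3 was 1.55 ± 0.35 (adjusted p = 0.003). ATF3, a stress-induced repressor and activator, had 10.5, 12.5 and 11.3 CPM at 10 µM and 24 h, against 1.64 and 1.54 CPM in DMSO at 24 h. At 6 h ATF3 had 32.7, 8.92 and 7.89 CPM at 10 µM, against 3.56 and 3.26 CPM in DMSO. Replicate 1 decided its shift, which was 0.56 ± 0.93 and not called with it (adjusted p = 0.65) and 1.55 and called without it (adjusted p = 8.6e-11, with a range of 8.6e-11 to 0.85 over the alternatives). CHAC1, which degrades glutathione, shifted by 1.01 ± 0.14 (adjusted p = 5.7e-05), with effects of 2.67 at 24 h and 1.66 at 6 h. ULBP1, a ligand of the natural killer receptor NKG2D, is no member of the list and deepened as well, by 1.83 ± 0.11 (adjusted p = 2.6e-12). PSPH, the last enzyme of serine synthesis, went against the list at -0.42 ± 0.06.

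The aminoacyl-tRNA synthetases, which load amino acids onto tRNAs, mostly moved the same way. Of 20 members, 15 shifted upward and 2 downward (75% and 10%, against 27.6% and 26.4% of all genes), with a median shift of 0.51. Their median effect was 0.08 at 24 h and -0.44 at 6 h, so as a list they stood near vehicle at 24 h and below it at 6 h. CARS, for cysteine, had 129, 132 and 134 CPM at 10 µM and 24 h, against 62.9 and 65.6 CPM in DMSO at 24 h. At 6 h CARS had 63, 53 and 54.9 CPM at 10 µM, against 67.1 and 66.8 CPM in DMSO. It was above vehicle at 24 h and below it at 6 h in every treated library (shift 1.27 ± 0.07; adjusted p = 1.2e-11). MARS, for methionine, turned over in the same manner (1.16 ± 0.07), AARS, for alanine, deepened (1.02 ± 0.05) and VARS, for valine, fell further (-0.43 ± 0.05).

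**Figure D2:**
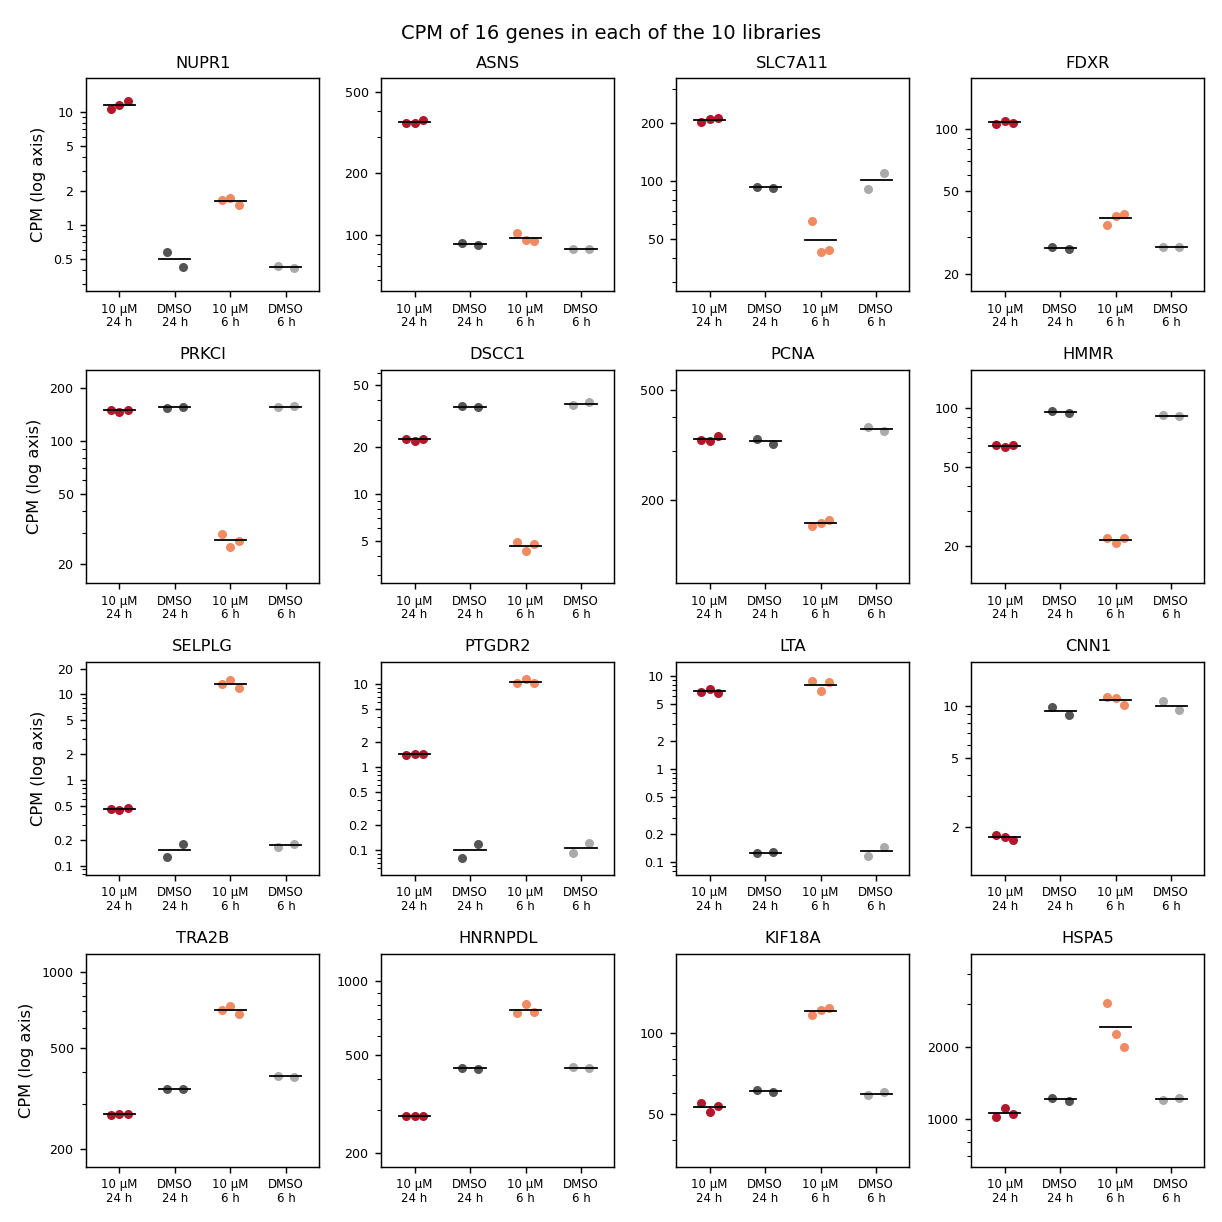
CPM on log axes in each of the 10 libraries (points) with group means (lines) for 16 genes, in the order 10 µM at 24 h, DMSO at 24 h, 10 µM at 6 h and DMSO at 6 h. NUPR1, ASNS and FDXR are highest at 10 µM and 24 h; PRKCI and PCNA are back at the vehicle level at 24 h; SELPLG, TRA2B, HNRNPDL, KIF18A and HSPA5 are highest at 10 µM and 6 h, where HSPA5 and SLC7A11 also differ most between replicates.

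p53 is the transcription factor that stops the cell cycle and can start cell death after DNA damage or failed mitosis. Most of its targets were called above vehicle at each time, 29 of 31 at 24 h and 26 of 31 at 6 h. Of all genes, 31.3% were called above vehicle at 24 h and 34% at 6 h. Of the 31 targets, 18 shifted upward, against 27.6% of all genes, 5 downward, against 26.4%, and 8 were not called. By time course 13 deepened, against 6.61% of all genes, and 8 held, against 18.3%. The median shift was 0.31, and the median effect was 1.15 at 24 h and 0.86 at 6 h. CDKN1A, which encodes the CDK inhibitor p21, had 218, 217 and 218 CPM at 10 µM and 24 h, against 57.3 and 58.1 CPM in DMSO at 24 h. At 6 h CDKN1A had 155, 170 and 159 CPM at 10 µM, against 63.5 and 66.6 CPM in DMSO. The treated levels do not overlap between the times, and the shift was 0.60 ± 0.06 (adjusted p = 1.1e-09). FDXR, a mitochondrial reductase, had 105, 109 and 106 CPM at 10 µM and 24 h, against 27 and 26.4 CPM in DMSO at 24 h. At 6 h FDXR had 34.3, 38 and 38.7 CPM at 10 µM, against 26.8 and 27 CPM in DMSO, so most of its rise came after 6 h (shift 1.54 ± 0.07; adjusted p = 7.8e-16).

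GDF15, a secreted stress factor, deepened to 8.56-fold at 24 h, against 4.8-fold at 6 h (shift 0.84 ± 0.13; adjusted p = 0.00015). MDM2, the ubiquitin ligase of p53, was almost the same at both times, 2.61-fold at 24 h and 2.34-fold at 6 h. Its shift of 0.15 ± 0.05 had an adjusted p of 0.006 but lost its call without replicate 2 of DMSO at 6 h (0.08; adjusted p = 0.15, with a range of 2e-05 to 0.15 over the alternatives). XPC, which recognises DNA lesions, turned over, down at 6 h and up at 24 h (shift 1.28 ± 0.07). PLK2 went against the list at -0.57 ± 0.04.

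Most genes that were far below vehicle at 6 h were closer to it at 24 h. A list of 7 falling genes was taken from earlier results of these libraries, so that its falls are no finding. Some return toward vehicle also follows from that choice. Of the 7, 5 shifted upward, against 27.6% of all genes, and 2, SMYD3 and GADL1, downward, against 26.4%. PRKCI, an atypical protein kinase C of cell polarity, had 151, 147 and 151 CPM at 10 µM and 24 h, against 155 and 157 CPM in DMSO at 24 h. The 6 h levels of PRKCI were 29.6, 24.9 and 27 CPM at 10 µM, against 156 and 158 CPM in DMSO. The treated libraries at 24 h were slightly below vehicle, with an effect of -0.06 ± 0.04 that was not called (adjusted p = 0.22), and the shift was 2.47 ± 0.06 (adjusted p = 2.4e-19). DSCC1, a subunit of the clamp loader that acts in sister chromatid cohesion, had 22.5, 22 and 22.5 CPM at 10 µM and 24 h, against 36.8 and 36.1 CPM in DMSO at 24 h. At 6 h DSCC1 had 4.91, 4.27 and 4.75 CPM at 10 µM, against 37.1 and 39 CPM in DMSO. It came back in part, to 0.614 of vehicle at 24 h, against 0.122 of vehicle at 6 h (shift 2.33 ± 0.08; adjusted p = 3.6e-19).

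LYRM7, which helps to assemble complex III of the respiratory chain, had 28.4, 27.1 and 28.8 CPM at 10 µM and 24 h, against 42.8 and 40.9 CPM in DMSO at 24 h. In the 6 h libraries LYRM7 had 5.58, 4.6 and 5.45 CPM at 10 µM, against 40.3 and 42.8 CPM in DMSO. It came back in part, as did PEX3, which inserts peroxisome membrane proteins (2.25 ± 0.09), UTP6 of the small subunit processome (2.25 ± 0.07) and SFR1 of recombination repair (2.34 ± 0.08). MTG1, a GTPase of mitochondrial ribosomes, and HIF1AN, the asparagine hydroxylase of hypoxia-inducible factor, were back at a level not called different from vehicle, with shifts of 2.25 ± 0.13 and 1.98 ± 0.08. HIF1AN had 79.1, 81.6 and 78 CPM at 10 µM and 24 h, against 85 and 83.7 CPM in DMSO at 24 h. At 6 h HIF1AN had 19.1, 17.1 and 21.5 CPM at 10 µM, against 79.5 and 81 CPM in DMSO. NRIP3, whose role is less clear, overshot vehicle at 24 h (2.31 ± 0.15).

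SMYD3, a lysine methyltransferase, fell further. It had 3.32, 2.86 and 2.89 CPM at 10 µM and 24 h, against 18.9 and 18.8 CPM in DMSO at 24 h. At 6 h SMYD3 had 13.9, 13.9 and 12.8 CPM at 10 µM, against 19.8 and 19.2 CPM in DMSO. The fall of SMYD3 deepened, with a shift of -2.11 ± 0.08 (adjusted p = 8.6e-18), and so did those of GBP1, a guanylate-binding protein (-1.68 ± 0.11), and TBCD, a tubulin folding cofactor (-1.67 ± 0.06). Falls with no called shift included PDE3B, a phosphodiesterase of cyclic nucleotides, at -0.03 ± 0.13, SH3GL2, an endophilin, at 0.12 ± 0.07, and IGF2BP3, an mRNA-binding protein, at 0.16 ± 0.11. IGF2BP3 had 87.2, 84.8 and 84.7 CPM at 10 µM and 24 h, against 224 and 226 CPM in DMSO at 24 h. At 6 h IGF2BP3 had 74.3, 63.6 and 73.7 CPM at 10 µM, against 201 and 214 CPM in DMSO, so it was below vehicle by a like amount at both times.

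Listed genes that were near silence in vehicle and rose steeply at 6 h were mostly lower at 24 h, but still above vehicle. These too were taken from earlier results of these libraries, so their rises are no finding. Some return toward vehicle also follows from the choice. Of 7, 5 shifted downward, against 26.4% of all genes, and 2, LTA and the non-coding RNA LINC00176, were not called. SELPLG, the ligand by which leukocytes roll on selectins, had 0.461, 0.452 and 0.475 CPM at 10 µM and 24 h, against 0.125 and 0.177 CPM in DMSO at 24 h. At 6 h SELPLG had 13.4, 14.9 and 11.9 CPM at 10 µM, against 0.167 and 0.181 CPM in DMSO. The rise was 3.08-fold at 24 h and 76.6-fold at 6 h (shift -4.64 ± 0.42; adjusted p = 2.4e-10). PTGDR2, a prostaglandin D2 receptor of T helper cells, had 1.39, 1.42 and 1.43 CPM at 10 µM and 24 h, against 0.0801 and 0.118 CPM in DMSO at 24 h. At 6 h PTGDR2 had 10.1, 11.4 and 10.3 CPM at 10 µM, against 0.0918 and 0.12 CPM in DMSO. It remained above every vehicle library at 24 h, at 14.2-fold (shift -2.80 ± 0.44; adjusted p = 4.6e-06).

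CMYA5, a muscle protein, and BAAT, which conjugates bile acids, behaved like SELPLG, with shifts of -3.61 ± 0.51 and -3.27 ± 0.40. ADCY10, the soluble adenylyl cyclase, shifted by -2.57 ± 0.46. PKMP3 (-2.53 ± 0.32), a pseudogene of the pyruvate kinase gene, and DCAF4L1 (-2.46 ± 0.42), a copy of DCAF4, followed it, and both may take reads from their parent genes. CLDN4, a tight junction claudin, and PDZK1, a scaffold of membrane transporters, were not called at 24 h and so returned (-2.01 ± 0.13 and -1.66 ± 0.18). CALML4, a calmodulin-like protein expressed in vehicle too, had 6.94, 7.05 and 6.75 CPM at 10 µM and 24 h, against 3.67 and 3.62 CPM in DMSO at 24 h. At 6 h CALML4 had 34.8, 35.8 and 34.8 CPM at 10 µM, against 3.78 and 4.05 CPM in DMSO, and the shift was -2.24 ± 0.08. The shift of CCR6, a chemokine receptor, was -2.10 ± 0.84 with an adjusted p of 0.04. It rests on 0.0394 to 0.0667 CPM in the vehicle libraries and lost its call in 11 of 24 alternatives, with shifts of -2.29 to -1.86 and adjusted p from 0.0018 to 0.24 over all of them. Those 11 were limma-voom and the removal of any DMSO library, of replicate 1 of 10 µM at 6 h, of replicate 1 or 2 of 10 µM at 24 h or of some 3 µM libraries.

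LTA, the cytokine lymphotoxin alpha, did not follow this course. It had 6.71, 7.22 and 6.57 CPM at 10 µM and 24 h, against 0.125 and 0.128 CPM in DMSO at 24 h. At 6 h LTA had 8.73, 6.85 and 8.5 CPM at 10 µM, against 0.117 and 0.146 CPM in DMSO. The rise was 53.7-fold at 24 h and 60.6-fold at 6 h, and the shift of -0.18 ± 0.45 was not called (adjusted p = 0.77). The 95% interval of that shift, -1.06 to 0.70, is wide. EID3, a subunit of the SMC5 and SMC6 complex, was likewise up at both times with a shift of -0.70 ± 0.65 that was not called. IL8, a neutrophil chemokine, had 8.98, 11.9 and 8.28 CPM at 10 µM and 24 h, against 1.66 and 1.67 CPM in DMSO at 24 h. At 6 h IL8 had 86.6, 15.9 and 15.4 CPM at 10 µM, against 3.47 and 3.83 CPM in DMSO. Replicate 1 alone gave the high value, and the shift was -0.90 with it and 0.45 without it, called in neither case (adjusted p 0.61 and 0.29, with a range of 0.29 to 0.85 over the alternatives).

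Several splicing regulators were below vehicle at 24 h and above it at 6 h. TRA2A and TRA2B are relatives of the SR proteins that favour exon inclusion. TRA2B had 272, 274 and 273 CPM at 10 µM and 24 h, against 345 and 345 CPM in DMSO at 24 h. At 6 h TRA2B had 704, 734 and 682 CPM at 10 µM, against 388 and 384 CPM in DMSO. Each treated library lay below vehicle at 24 h and above it at 6 h (TRA2B shift -1.21 ± 0.05; adjusted p = 9.4e-18), and TRA2A did the same (-1.22 ± 0.05). Among 14 SR genes, 5 shifted upward and 8 downward (35.7% and 57.1%, against 27.6% and 26.4% of all genes), with a median of -0.15. SRSF5 and SRSF7, which had fallen at 6 h, shifted upward by 0.88 ± 0.18 and 0.78 ± 0.07.

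HNRNPDL, an RNA-binding protein that also limits its own transcript, had 283, 282 and 282 CPM at 10 µM and 24 h, against 445 and 441 CPM in DMSO at 24 h. At 6 h HNRNPDL had 744, 808 and 751 CPM at 10 µM, against 447 and 446 CPM in DMSO. It too lay on opposite sides of vehicle at the 2 times in every treated library (shift -1.43 ± 0.05; adjusted p = 3.6e-19). Of 20 hnRNP genes, 13 shifted downward and 6 upward (65% and 30%), and 9 turned over, against 10.5% of all genes. Their median effect was -0.21 at 24 h and 0.26 at 6 h. HNRNPA1 (-0.79 ± 0.04) and HNRNPA3 (-0.74 ± 0.05) were among those that fell, and HNRNPH1 (0.49 ± 0.06) went against them. Of 24 core spliceosome genes, 15 shifted downward and 6 upward, against 26.4% and 27.6% of all genes. PRPF8, the scaffold of the catalytic core, fell further (-0.88 ± 0.11), and SF3A3 of the U2 particle returned to vehicle (0.93 ± 0.05).

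The kinases that CC-671 targets and their paralogs shifted by at most 0.42 on the log2 scale in either direction. CLK2 had 79.5, 80.6 and 78.7 CPM at 10 µM and 24 h, against 52.2 and 55.6 CPM in DMSO at 24 h. At 6 h CLK2 had 58.7, 52.5 and 64 CPM at 10 µM, against 51.8 and 52.1 CPM in DMSO. Its RNA was above vehicle in every treated library, and the shift was 0.39 ± 0.08 (adjusted p = 0.00074). CLK3 deepened by 0.29 ± 0.05, whereas CLK1 and CLK4 came partly back by -0.26 ± 0.06 and -0.42 ± 0.06 and stayed above vehicle. Without a scaling factor the shift of CLK1 was -0.16 and still called. TTK had 94.6, 90.4 and 95.3 CPM at 10 µM and 24 h, against 103 and 101 CPM in DMSO at 24 h. At 6 h TTK had 101, 104 and 112 CPM at 10 µM, against 102 and 100 CPM in DMSO. These levels lie close together, and the shift of -0.19 ± 0.06 (adjusted p = 0.0097) lost its call without a scaling factor (-0.10; adjusted p = 0.16, with a range of 0.0027 to 0.16 over the alternatives). RNA levels do not measure kinase activity.

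Factors of transcription, RNA 3′ ends and RNA decay shifted upward in most cases, against 27.6% of all genes. Of 20 3′ end processing factors, 11 shifted upward and 5 downward (median 0.21), of 14 nonsense-mediated decay genes 9 and 3 (median 0.25), and of 18 transcription kinases and partners 11 and 6 (median 0.29). SMG9, a partner of the decay kinase SMG1, had 60.2, 58.5 and 61 CPM at 10 µM and 24 h, against 49.2 and 49.4 CPM in DMSO at 24 h. At 6 h SMG9 had 24.5, 22.8 and 24.2 CPM at 10 µM, against 50.3 and 49.9 CPM in DMSO. SMG9 was above vehicle at 24 h and below it at 6 h in every treated library, with a shift of 1.35 ± 0.05 (adjusted p = 1.1e-17). The helicase UPF1 did so as well (0.93 ± 0.06), as did CCNH, the cyclin of the CDK7 complex (1.01 ± 0.06), and CCNK, the cyclin of CDK12 (0.81 ± 0.06). CDK9, the kinase that releases paused polymerase, went the other way (-0.51 ± 0.05). MALAT1, a long non-coding RNA of nuclear speckles, had 125, 187 and 113 CPM at 10 µM and 24 h, against 64.6 and 82.2 CPM in DMSO at 24 h. At 6 h MALAT1 had 42.1, 28.8 and 45.5 CPM at 10 µM, against 75.3 and 81 CPM in DMSO, so it was above vehicle at 24 h and below it at 6 h in every library (shift 1.96 ± 0.35; adjusted p = 0.00068).

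Opposite effects at the 2 times were also clear in further genes named by rule. DCHS1, a large cadherin of planar polarity, had 2.21, 2 and 2.1 CPM at 10 µM and 24 h, against 5.58 and 5.03 CPM in DMSO at 24 h. At 6 h DCHS1 had 7.63, 7.6 and 7.49 CPM at 10 µM, against 4.17 and 3.93 CPM in DMSO. Each treated library lay below vehicle at 24 h and above it at 6 h (shift -2.23 ± 0.12; adjusted p = 6.3e-15), and OXTR, the oxytocin receptor (-1.87 ± 0.14), and MAP7D2, a microtubule-binding protein (-1.41 ± 0.10), did likewise. ALS2CL, a regulator of small GTPases in endosomes, went the other way, with 29.5, 31.2 and 26.7 CPM at 10 µM and 24 h, against 14.4 and 15.7 CPM in DMSO at 24 h. At 6 h ALS2CL had 11.7, 9.81 and 13.1 CPM at 10 µM, against 19.4 and 20.5 CPM in DMSO (shift 1.75 ± 0.18; adjusted p = 5.1e-06).

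Most replication and repair genes were closer to vehicle at 24 h. Of 40 replication genes driven by E2F, 24 shifted upward and 11 downward (60% and 27.5%, against 27.6% and 26.4% of all genes). Their median effect was -0.13 at 24 h and -0.30 at 6 h. By time course 7 returned, against 12.9% of all genes, and 17 partly returned, against 13.3%. PCNA, the sliding clamp of DNA polymerases, had 329, 327 and 341 CPM at 10 µM and 24 h, against 334 and 318 CPM in DMSO at 24 h. At 6 h PCNA had 161, 165 and 170 CPM at 10 µM, against 368 and 355 CPM in DMSO. The treated and vehicle levels overlap at 24 h and are far apart at 6 h (shift 1.16 ± 0.05; adjusted p = 5.6e-17). POLE2, a subunit of polymerase epsilon, shifted by 1.34 ± 0.06 and CDC45, of the replicative helicase, by 1.33 ± 0.07, while the flap endonuclease FEN1 fell (-0.81 ± 0.05). Of 22 DNA repair genes 15 shifted upward (68.2%) and 3 downward (13.6%), with a median of 0.28. BRCA1 (0.91 ± 0.05) and CHEK2 (1.09 ± 0.07) were among those shifted upward. Of 18 cohesion genes, 13 shifted upward (72.2%) and 4 downward (22.2%), with a median of 0.21.

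Mitosis genes did not share one course. Of 36, 10 shifted upward (27.8%, against 27.6% of all genes), 19 downward (52.8%, against 26.4%) and 7 were not called. Their median effect was -0.42 at 24 h and -0.15 at 6 h. HMMR, a spindle protein, had 65, 63.4 and 64.4 CPM at 10 µM and 24 h, against 96.6 and 94.1 CPM in DMSO at 24 h. At 6 h HMMR had 21.9, 20.8 and 21.9 CPM at 10 µM, against 91.7 and 90.3 CPM in DMSO. It was below vehicle at both times and less so at 24 h (shift 1.51 ± 0.06; adjusted p = 6.2e-18). KIF18A, a kinesin that dampens chromosome movement, had 54.8, 50.7 and 53.5 CPM at 10 µM and 24 h, against 61.4 and 60.4 CPM in DMSO at 24 h. At 6 h KIF18A had 117, 122 and 124 CPM at 10 µM, against 58.9 and 60.2 CPM in DMSO. KIF18A was below vehicle at 24 h and above it at 6 h in every treated library (shift -1.22 ± 0.05; adjusted p = 9.4e-17).

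FOXM1, the transcription factor of mitotic genes, and CCNB1, cyclin B1, were above vehicle at 6 h and below it at 24 h, with shifts of -0.91 ± 0.04 and -0.76 ± 0.05. CCNB1 had 243, 231 and 238 CPM at 10 µM and 24 h, against 342 and 340 CPM in DMSO at 24 h. At 6 h CCNB1 had 401, 429 and 432 CPM at 10 µM, against 362 and 354 CPM in DMSO. Of 18 spindle checkpoint and kinetochore genes, 9 shifted upward (50%, against 27.6% of all genes) and 5 downward (27.8%, against 26.4%). Those shifted upward included SPC25 of the NDC80 complex (1.10 ± 0.07), ZWILCH, which brings dynein to kinetochores (1.10 ± 0.07), and MAD1L1 (0.70 ± 0.07). The letters TTTCCCGC, those of the E2F element, stood on either strand in 9 of 34 promoters of the replication list (26.5%). They stood in 1.66% of all promoters and 2.42% of promoters of tested genes. That list was made of genes driven by E2F, so its share follows in part from the choice. TTTGAA, of the cell cycle homology region bound by the DREAM complex, stood in 21 of 31 promoters of the mitosis list (67.7%). It stood in 15.4% of all promoters and 10.2% of promoters of tested genes. The mitosis list was also made of genes known beforehand, so this share too may follow from the choice.

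**Figure D3:**
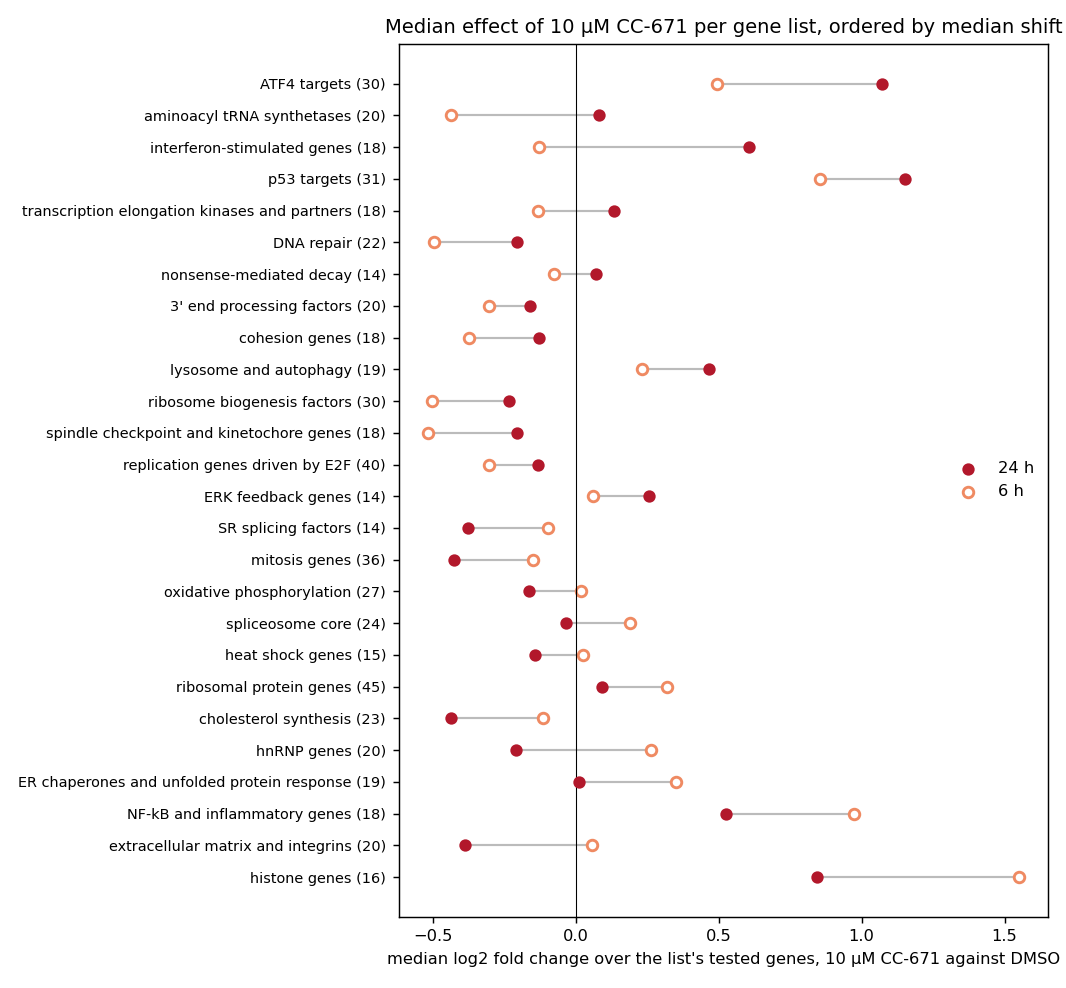
Median effect of 10 µM CC-671 over the tested genes of each list (log2 fold change over DMSO), at 24 h (filled) and at 6 h (open), ordered from the largest median shift at the top to the lowest at the bottom, with the number of genes in brackets. ATF4 targets stand at 1.07 at 24 h and 0.49 at 6 h, and histone genes at 0.84 at 24 h and 1.55 at 6 h.

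Protein folding genes of the endoplasmic reticulum were mostly higher at 6 h. Of 19 such genes, 12 shifted downward and 4 upward (63.2% and 21.1%, against 26.4% and 27.6% of all genes), and 8 returned, against 12.9%. Their median effect was 0.01 at 24 h and 0.35 at 6 h. HSPA5, the main chaperone of that compartment, had 1016, 1108 and 1050 CPM at 10 µM and 24 h, against 1227 and 1193 CPM in DMSO at 24 h. At 6 h HSPA5 had 3029, 2246 and 1994 CPM at 10 µM, against 1197 and 1219 CPM in DMSO. It was high at 6 h in every treated library, most in replicate 1, and no longer called different from vehicle at 24 h (shift -1.20 ± 0.19; adjusted p = 0.00021). ERN1, the stress sensor IRE1, went against the list (1.16 ± 0.12). Of 15 heat shock genes, 9 shifted downward and 2 upward (60% and 13.3%), with BAG3 at -0.66 ± 0.16 and DNAJB1 at -0.58 ± 0.14. CRYAB, a small heat shock protein, rose further (1.07 ± 0.15).

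Lysosome and autophagy genes shifted upward in 11 of 19 cases (57.9%, against 27.6% of all genes), and the other 8 were not called. Their median effect was 0.47 at 24 h and 0.23 at 6 h. SQSTM1, the cargo receptor p62, had 429, 455 and 438 CPM at 10 µM and 24 h, against 305 and 304 CPM in DMSO at 24 h. At 6 h SQSTM1 had 242, 205 and 198 CPM at 10 µM, against 333 and 326 CPM in DMSO. It was above vehicle at 24 h and below it at 6 h in every treated library (shift 1.15 ± 0.08; adjusted p = 1.4e-08). Cholesterol synthesis genes shifted downward in 15 of 23 cases (65.2%, against 26.4% of all genes) and upward in 7 (30.4%), with a median of -0.28. The treated libraries had a median change of 0.0056 in these genes between 24 h and 6 h, with 11 higher and 8 lower at 24 h, whereas the vehicle median was 0.30 with 20 of 23 higher at 24 h. By these medians the shift of the list lay mostly in vehicle. MSMO1, a sterol oxidase, shifted by -0.93 ± 0.05 and was higher in vehicle at 24 h than at 6 h by 0.45. The vehicle change thus made up only part of the shift of MSMO1.

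Most ribosomal protein and histone genes shifted downward. Of 45 ribosomal protein genes 36 shifted downward and 1 upward (80% and 2.22%, against 26.4% and 27.6% of all genes). Their median shift was a small -0.26, with effects of 0.09 at 24 h and 0.32 at 6 h. Of 16 tested histone genes 12 shifted downward and 4 were not called (median -0.76), with effects of 0.84 at 24 h and 1.55 at 6 h. HIST1H2AC had 8.68, 8.34 and 8.18 CPM at 10 µM and 24 h, against 7.86 and 7.3 CPM in DMSO at 24 h. At 6 h HIST1H2AC had 20.6, 21.1 and 19.1 CPM at 10 µM, against 7.71 and 7.43 CPM in DMSO, and the shift was -1.27 ± 0.08. Both families have near-identical copies that can share reads, and most histone transcripts lack a poly-A tail, so these values are uncertain. Of 30 ribosome biogenesis factors 16 shifted upward and 9 downward (53.3% and 30%). The upward shifts were led by UTP6, UTP20 (1.45 ± 0.14) and UTP14A (1.26 ± 0.09), all of them parts of the small subunit processome that had fallen at 6 h. Genes of oxidative phosphorylation shifted downward in 16 of 27 cases and upward in 5 (median -0.16).

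The largest late falls of the genes named by rule were those of CNN1, H19 and FRZB. CNN1, the smooth muscle protein calponin, had 1.78, 1.74 and 1.68 CPM at 10 µM and 24 h, against 9.96 and 8.92 CPM in DMSO at 24 h. At 6 h CNN1 had 11.3, 11.2 and 10.2 CPM at 10 µM, against 10.7 and 9.47 CPM in DMSO. The groups overlap at 6 h and are separate at 24 h (shift -2.56 ± 0.11; adjusted p = 5.5e-17). FRZB, a secreted Wnt antagonist, had 19.4, 18.7 and 18.9 CPM at 10 µM and 24 h, against 79.1 and 76.9 CPM in DMSO at 24 h. At 6 h FRZB had 55.3, 59.9 and 59.7 CPM at 10 µM, against 62.9 and 58.2 CPM in DMSO, and the shift was -1.98 ± 0.06 (adjusted p = 2.4e-19). H19, an imprinted non-coding RNA, fell late as well (-2.09 ± 0.15). Of 20 matrix and integrin genes, 13 shifted downward and 6 upward (65% and 30%, against 26.4% and 27.6% of all genes). Their median shift was -0.47, and COL1A2 (-1.23 ± 0.07) and ITGB5 (-1.12 ± 0.05) were among those shifted downward. The integrin ITGA2 rose late (1.30 ± 0.27).

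The summed levels of fibroblast, leukocyte and endothelial markers were lowest at 10 µM and 24 h, and their part in the results was not tested. All 7 tested fibroblast markers shifted downward, against 26.4% of all genes. The summed level of the 10 markers was 323 to 332 CPM at 10 µM and 24 h and 525 to 527 CPM in DMSO at 24 h. It was 567 to 590 CPM at 10 µM and 6 h and 513 to 536 CPM in DMSO at 6 h. Most of that sum was COL3A1 and ACTA2, whereas the fibroblast markers DCN, FAP and THY1 had at most 4 counts in any library. Of 12 leukocyte markers 5 could be tested, of which 3 shifted downward, and their sum was 6.57 to 7.22 CPM at 10 µM and 24 h, 13.2 to 13.8 CPM in DMSO at 24 h, 12.2 to 13.2 CPM at 10 µM and 6 h and 10.8 CPM in DMSO at 6 h. PTPRC made up most of it, while by gene the 24 h effect was called higher for 2 of the 5 and lower for 1. Endothelial markers summed to 8.66 to 9.02 CPM at 10 µM and 24 h, 19.5 to 19.8 CPM in DMSO at 24 h, 10.9 to 11.8 CPM at 10 µM and 6 h and 12.6 to 13.4 CPM in DMSO at 6 h. Of the 4 tested, 1 shifted upward, 1 downward and 2 were not called. CDH5 made up most of that sum, and KDR had at most 5 counts and CLDN5 at most 6. Of the leukocyte markers, MS4A1 and NKG7 were at 0 in all 10 libraries, and CD3D had at most 1 count. All libraries come from the established line CAL51, so these sums are levels of marker genes and not counts of fibroblasts, leukocytes or endothelial cells. In such bulk libraries fewer cells with a marker's RNA and less of that RNA per cell cannot be told apart.

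The largest late rises of the genes named by rule were those of YJEFN3, UBASH3B and NAP1L3. UBASH3B, a phosphatase that restrains receptor signalling, had 5.81, 5.65 and 6.08 CPM at 10 µM and 24 h, against 1.51 and 1.56 CPM in DMSO at 24 h. At 6 h UBASH3B had 1.52, 1.7 and 1.84 CPM at 10 µM, against 1.54 and 1.8 CPM in DMSO. The groups overlap at 6 h and are separate at 24 h (shift 1.92 ± 0.14; adjusted p = 1.8e-12). YJEFN3 (2.11 ± 0.21) and NAP1L3, a histone chaperone relative (1.53 ± 0.17), followed the same course. Interferon-stimulated genes shifted upward in 10 of 18 cases (55.6%, against 27.6% of all genes) and downward in 3 (16.7%, against 26.4%). Their median effect was 0.61 at 24 h and -0.13 at 6 h. IRF7, the inducer of interferon alpha genes, had 9.91, 10 and 10.8 CPM at 10 µM and 24 h, against 4.67 and 4.86 CPM in DMSO at 24 h. At 6 h IRF7 had 4, 3.88 and 4.25 CPM at 10 µM, against 5.46 and 5.05 CPM in DMSO (shift 1.48 ± 0.10; adjusted p = 3.3e-13).

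Of 18 NF-kB and inflammatory genes, 3 shifted upward, 2 downward and 13 were not called, against 27.6% upward and 26.4% downward of all genes, and their median effect was 0.53 at 24 h and 0.97 at 6 h. LIF, a cytokine of the interleukin 6 family, rose further (1.16 ± 0.26) and NFKBIA, the feedback inhibitor of NF-kB, returned (-0.55 ± 0.06). Of 14 feedback genes of the ERK pathway 8 shifted upward and 1 downward, by a median of 0.12, with DUSP6, an ERK phosphatase, at 0.42 ± 0.04. MYC had 43.8, 46.6 and 44.1 CPM at 10 µM and 24 h, against 45.8 and 46.2 CPM in DMSO at 24 h. At 6 h MYC had 87.1, 61.8 and 57.1 CPM at 10 µM, against 62.9 and 63.3 CPM in DMSO, and its shift of -0.16 ± 0.19 was not called (adjusted p = 0.52).

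The number of exons of a gene went with its shift. Over 14576 of the 14611 tested genes that RefSeq lists as protein-coding, with exons from GENCODE 29 on GRCh38, the median shift was -0.17 for genes of 1 exon and also for genes of 2 to 4 exons, -0.06 for 5 to 8, 0.08 for 9 to 16, 0.20 for 17 to 32 and 0.17 for more than 32. The median effect fell along the same bins from 0.11 to -0.23 at 24 h and from 0.28 to -0.35 at 6 h. Across these genes Spearman's rho of exon number was -0.127 with the effect at 24 h and -0.323 with that at 6 h. With the shift it was 0.225. The length of the gene on the genome gave rho of -0.181 at 24 h, -0.257 at 6 h and 0.102 with the shift. These are descriptions over genes that share libraries, and exon number was not separated from gene length. The share of read pairs outside annotated exons was 5.93% ± 0.203 at 10 µM and 24 h (SD, n = 3), 4.43% ± 0.238 in DMSO at 24 h (n = 2), 6.65% ± 0.377 at 10 µM and 6 h (n = 3) and 4.57% ± 0.267 in DMSO at 6 h (n = 2). Treated libraries thus exceeded vehicle by 1.5 percentage points at 24 h and by 2.08 points at 6 h, a difference of -0.58 points that was not tested, and the part of reads from introns in any gene's shift was not tested.

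**Figure D4:**
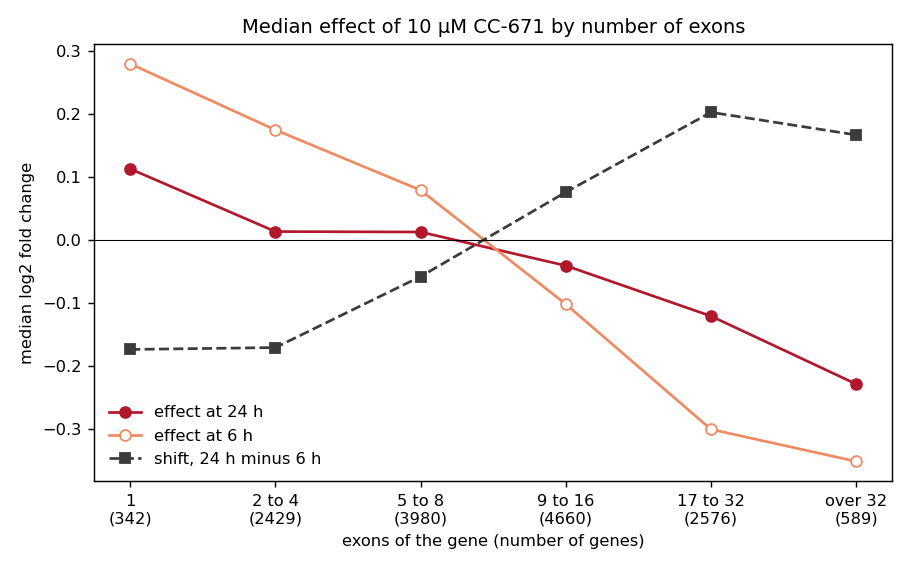
Median log2 fold change (vertical axis) of protein-coding genes binned by exon number (horizontal axis, with the number of genes in brackets), for the effect at 24 h, the effect at 6 h and the shift. The effect falls with exon number at both times, and the median shift is -0.17 in the bins of fewest exons and 0.20 at 17 to 32 exons.

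The shift depended on dose for a minority of genes. The shift at 10 µM minus the shift at 3 µM, in which the vehicle libraries cancel, was called higher for 1523 genes and lower for 1066, which is 6.92% and 4.84% of the tested genes; 19 (0.0863%) and 65 (0.295%) of them were at least 2-fold. The excess of higher calls depends on the processing: 58.8% of the calls were higher, 69.8% without a scaling factor, and with the stricter filter on low counts 1454 genes were higher and 1469 lower. HIF1AN shifted by 1.98 ± 0.08 at 10 µM and 1.30 ± 0.08 at 3 µM, a difference of 0.68 ± 0.07 (adjusted p = 1.8e-05). GDPD1, a lysophospholipase, and IL33, an alarmin cytokine, had differences of 0.77 ± 0.11 and 0.72 ± 0.13. SELPLG shifted by -4.64 ± 0.42 at 10 µM and -3.65 ± 0.40 at 3 µM, a difference of -0.98 ± 0.18 (adjusted p = 0.00072), and CCR6 and TMEM254-AS1 differed by -0.93 ± 0.19 and -0.85 ± 0.14. By list, 11 of 31 p53 targets and 7 of 14 SR genes had a lower shift at 10 µM than at 3 µM, and 8 of 30 ribosome biogenesis factors a higher one; the other members of these lists were not called. The antisense gene TMEM254-AS1 may share reads with the opposite strand, since the strand setting of the counting is not given in the sources used here.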

How the data were processed

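RNA of CAL51 cells was sequenced from poly-A selected, strand-specific libraries. Per the labels and the submitters' processing notes, the authors aligned reads to hg19 with STAR and deposited counts of read pairs per gene symbol from HTSeq. The notes name edgeR as well. The sources used here do not give the annotation release, the strand setting or the treatment of marked duplicates, which bear on counts of overlapping and antisense genes. Entries that name no gene (16.9% to 20.2% of pairs) were left out of library totals.

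Genes were kept by filterByExpr with a minimum count of 10 and a minimum total of 15, which left 22007. The 16 libraries were fitted with 6 group means in edgeR 4.0.16 (TMM scaling, quasi-likelihood test, R 4.3.3). The shift is the contrast of the 24 h and 6 h effects, tested in that fit, and p-values are Benjamini-Hochberg adjusted over all tested genes. A call is an adjusted p under 0.05, errors of log2 values are standard errors, fold changes carry a prior count of 0.125, and CPM are counts scaled by each library's TMM-adjusted total at genes.

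The genes and lists were chosen with earlier results of these data known, so list counts and medians are descriptions beside those of all genes. Genes were named by rule: the 10 largest called shifts in each direction (average log2 CPM 1 or more), 3 per time course and direction, 10 followed genes, up to 4 called members and 1 opposing member per list, and the 3 largest dose differences each way. LINC00176, GADL1 and further list members were named after their values were seen. A few genes that the rule picks are not reported here.

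Counts were simulated with 200 changed genes among 21491. The shift test recovered 55.4%, 73.1% and 86.2% of 1.5-fold, 2-fold and 4-fold changes, with 5.37% false calls. Changes were placed only at 10 µM and 24 h, and all other genes had the same mean in every group. In the real counts 54% of tested genes had a called shift, so these rates need not hold there. Alternatives were DESeq2 1.42.0, limma-voom (limma 3.58.1), RLE scaling, no scaling factor, no filter beyond 1 count, at least 1 CPM in 5 libraries, the compared groups alone, a replicate block, and each library left out.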

Additional observations from a re-analysis of the deposited data

Results flagged for a closer look

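The effect of 10 µM CC-671 differed between 24 h and 6 h for 11883 genes by the edgeR test of the difference itself. Among the clearest opposite effects at the 2 times, DCHS1 (-2.23), OXTR (-1.87) and MAP7D2 (-1.41) were below vehicle at 24 h and above it at 6 h, while SLC7A11 (2.18), MALAT1 (1.96) and ALS2CL (1.75) were above vehicle at 24 h and below it at 6 h; values are shifts on the log2 scale. The shift itself differed between 10 µM and 3 µM for 2589 genes. The largest such differences of the named genes, 10 µM minus 3 µM on the log2 scale, were 0.77 for GDPD1, 0.72 for IL33, 0.68 for HIF1AN, -0.98 for SELPLG, -0.93 for CCR6 and -0.85 for TMEM254-AS1. Read pairs outside annotated exons, which no gene value uses, made up a larger share in every treated library than in any vehicle library at 24 h, by 1.5 percentage points on average. No group had 4 libraries, so single libraries were not tested as outliers.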

How the results depend on the processing

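Between 86.5% and 98.9% of the 11883 called shifts kept their call and direction under each alternative, lowest with the stricter filter, which tested 14718 genes. That filter left 689 genes with an upward and 458 with a downward shift of at least 2-fold and 2597 genes called alike at both times with no called shift. The median 24 h effect of early 2-fold falls (-0.39) was -0.401 with DESeq2, -0.399 with limma-voom and with RLE scaling, -0.279 without a scaling factor, -0.34 with the stricter filter and -0.377 in the compared groups alone, and -0.419 to -0.383 with each library left out. That of early 2-fold rises (1.29) was 1.27 with limma-voom, 1.39 without a scaling factor, 1.34 with no filter and 1.19 with the stricter filter, and 1.28 to 1.35 with each library left out. Without a scaling factor the median shift of all genes was 0.0953, and calls at 24 h split into 8790 higher and 5322 lower (62.3% higher, against 49.2%). Across alternatives, the median shift of a list moved beyond the spread between the 3 libraries of 10 µM at 24 h in 224 cases. In the other 520 cases it stayed within that spread, and no list median changed sign.

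Replicate numbers did not pair the libraries: deviations of same-numbered libraries correlated at -0.0632 to 0.0757, and 0 of 13 pairs exceeded 0.1. With the replicate block 6030 genes shifted upward and 5754 downward, and the median of early falls was -0.41.

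Of the genes named, PDE3B (-0.03, not called) changed sign without a scaling factor (0.07) and ranged from -0.13 to 0.08 with single libraries left out. IL8 ranged from -1.27 to 0.45 and MYC from -0.27 to 0.06, each above 0 only without replicate 1 of 10 µM at 6 h; the cause was not tested. ATF3, not called at 0.56, was 0.24 to 1.55, called only without that replicate. SH3GL2 became called without a scaling factor (0.21; adjusted p = 0.012) and without the same replicate (0.19; adjusted p = 0.0088), over a range of 0.0088 to 0.29. With 2 vehicle libraries at each time, genes near silence in vehicle have the widest errors.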
